A study of Mus musculus with 17 samples.

Results

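The 21 collagen genes and 22 collagen-processing genes measured in 17 single cells of adult mouse back skin are described here. They are the 43 of 8446 rows of the table whose symbols name a collagen chain, a prolyl or lysyl hydroxylase, a lysyl oxidase, a procollagen C-proteinase enhancer, or one of Serpinh1, Crtap, Ppib, Fkbp10, Adamts2 and Bmp1. The choice was by symbol and used no measured value. The cells came from C57BL/6 mice of genotype Prrx1-CreERT;Tomato given tamoxifen at 2 mg per 30 g of body weight once a day for 3 days. In such mice a Cre recombinase that tamoxifen activates is driven by regulatory sequence of Prrx1, a transcription factor of mesenchyme, and switches on the red Tomato reporter. Red cells therefore had Prrx1 activity at the time of treatment and need not be of 1 cell type. The skin was taken apart with 2 enzymes, elastase for 20 min and type IV collagenase for 1.5 h, before red cells were sorted and picked one by one under a fluorescence microscope. All 17 cells carry the same labels and no animal is named, so the cells are treated as 1 sample, with levels, spreads and correlations but no test between conditions.

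Collagens are secreted as procollagen. In the endoplasmic reticulum prolines and lysines of each chain are hydroxylated, 3 chains fold into a triple helix with the help of chaperones, and outside the cell the terminal propeptides are cut off and the fibrils are cross-linked through oxidised lysines. Types I and III form the bulk of the fibrils of dermis, type V regulates fibril diameter, types XII, XIV and XVI sit on fibril surfaces, type IV builds basement membranes, and type VI forms beaded microfibrils around cells.

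Values are the deposited log-scale values, read as log2(FPKM + 1), where FPKM is a fragment count scaled by transcript length and library size. A gene is called detected at a value of 1 or more, which is FPKM 1 on that reading. Means are given ± SD over the 17 cells, and read depth per cell is unknown. The sorted values are nearly the same in every cell, so a value shows a gene's rank within its cell and not an amount of RNA. Each cell had 10 to 12 of 12 fibroblast markers detected, and 8 to 12 at FPKM 10 or more. The 9 lists of other cell types had only 1 to 6 measured markers each, which limits what they can show. Of the pericyte or smooth muscle list, 6 of 11 markers were measured, with a summed level of 0.15 to 11.44 per cell. Per cell 0 to 5 of these 6 were detected, and at most 1 was at FPKM 10 or more. Of 6 adipocyte markers 3 were measured, with a summed level of 0.775 to 22.1, and all 3 (Fabp4 at 6.52, Cfd at 9.70 and Car3 at 5.85) were above FPKM 10 in cell 16. Fabp4 alone was detected in 12 cells. The summed adipocyte level correlated with the fibrillar collagen mean at -0.0190 over the cells, and its part in the collagen values was not tested otherwise.

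The members were detected widely. In all 17 cells 24 of the 43 were found, 13 of them collagen genes and 11 processing genes, where 13% of all rows were found in every cell. At FPKM 10 or more 13 members were found in every cell, where 5.65% of all rows were. A further 11 were detected at FPKM 1 in 9 to 16 cells, 8 in 1 to 8 cells and none in no cell. Mean values had a median of 5.44 over the collagen genes and 4.96 over the processing genes, beside 1.89 over all rows. Per cell 29 to 41 of the 43 members were detected. In each cell 4369 of all 8446 rows were, so the threshold is a fixed rank within the cell.

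**Figure D1:**
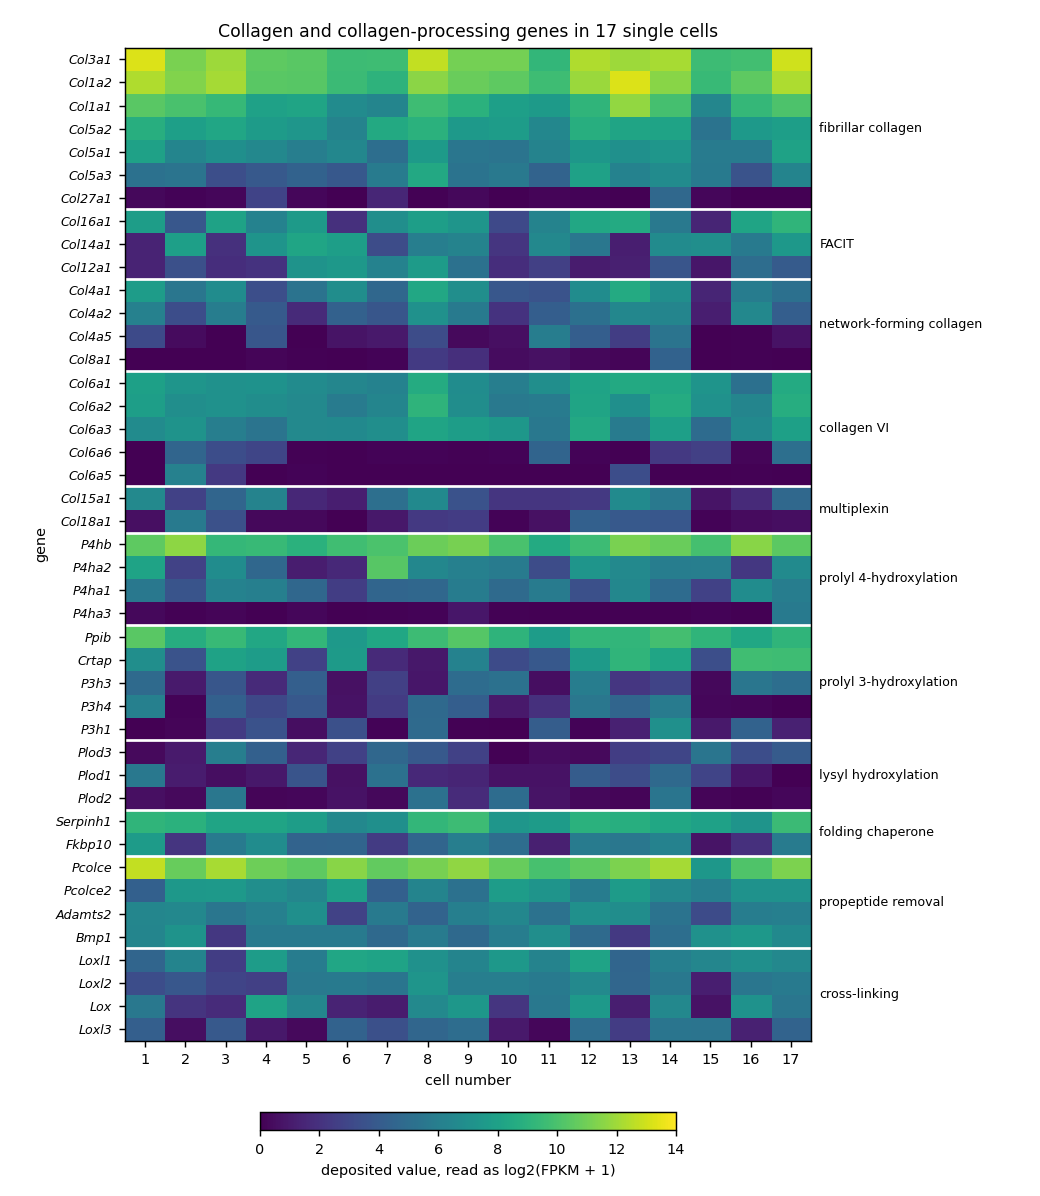
Deposited values, read as log2(FPKM + 1), of the 43 genes (vertical axis, grouped by collagen class and processing step) in the 17 cells (horizontal axis, cell number). Col3a1, Col1a2 and Pcolce are bright in nearly every cell, whereas rows such as Col27a1, Col8a1 and P4ha3 are dark except in 1 to 3 cells.

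Among the collagen genes, the chains of types I and III held the highest values. Of all 43 genes, Col3a1 had the highest value in 6 cells and Col1a2 in 1, Pcolce, which assists propeptide removal, in 7 and P4hb, a subunit of prolyl 4-hydroxylase, in 3. By mean, Pcolce (10.9), P4hb (10.2) and the cyclophilin gene Ppib (9.05) stood above Col1a1 (8.82). Col3a1, the single chain of type III collagen (chromosome 1 from 45311538 to 45349706, GRCm38), ran from 9.26 in cell 11 through a median of 11.08 to 13.26 in cell 1. Col1a2, the alpha 2 chain of type I (chromosome 6 from 4504814 to 4541544), ran from 9.04 in cell 7 through 10.79 to 13.26 in cell 13. Col1a1, the alpha 1 chain (chromosome 11 from 94936224 to 94953042), ran from 6.38 in cell 7 through 9.15 to 11.75 in cell 13. By rank within the cell, Col3a1 had a median place of 32 among 8446 rows, Col1a2 of 44 and Col1a1 of 210. Col3a1 was the highest collagen gene in 12 cells and Col1a2 in the other 5. The 3 genes together made up 58.7% to 89.6% of the back-transformed FPKM of all collagen genes. All collagen genes made up 0.363% to 3.24% of the back-transformed FPKM of all rows in the cell. Because the values show rank within the cell, these shares are not shares of its RNA.

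The 2 chains of type I collagen kept 1 order in every cell. Col1a1 was below Col1a2 in all 17 cells, and the difference Col1a1 minus Col1a2 was -2.16 ± 0.54 on the log2(FPKM + 1) scale, from -3.02 in cell 15 to -1.22 in cell 16. Type I collagen holds more alpha 1 than alpha 2 chains, so this order of the values is the reverse of that of the chains in the protein. The libraries read the 3′ end of transcripts whereas FPKM divides by transcript length. After multiplication by exonic length the difference was -3.09 ± 0.54, again negative in all cells, although the exonic length used for Col1a2, 12426 bases against 6563 for Col1a1, includes exons of all annotated transcripts. The part of the counting in this difference was not tested. Col3a1 and Col1a2 lay close together, with Col3a1 higher by 0.17 ± 0.61 and above Col1a2 in 12 cells, and after multiplication by length the difference was -0.17 ± 0.61. Their order is thus within the spread between cells.

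The start regions of Col1a2 and Col3a1 are shown because these 2 highest collagen genes had one of the highest correlations over cells (0.884). The sequences are RefSeq's for GRCm38.p6, on the plus strand, from the 250 bases before the start in RefSeq, without bases that GENCODE M21 places in an exon. For Col3a1 that start is the GENCODE start given above, while for Col1a2 it is 4505618, which lies 804 bases inside the GENCODE span. Capitals mark the motifs searched for on both strands: the CCAAT box (CCAAT), the GC box (GGGCGG) and the TATA box (TATAAA).
Col1a2, chr6:4505370-4505492: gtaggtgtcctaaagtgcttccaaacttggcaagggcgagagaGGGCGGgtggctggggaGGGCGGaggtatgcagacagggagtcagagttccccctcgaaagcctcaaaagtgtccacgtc
Col3a1, chr1:45311288-45311537: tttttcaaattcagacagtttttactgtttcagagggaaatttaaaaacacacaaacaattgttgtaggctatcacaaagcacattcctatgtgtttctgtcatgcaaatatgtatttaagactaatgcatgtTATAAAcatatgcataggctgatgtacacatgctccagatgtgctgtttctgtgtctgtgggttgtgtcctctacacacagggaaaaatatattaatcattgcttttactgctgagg
The Col1a2 stretch holds 2 GC boxes, beginning 205 and 188 bases before the start, and a CCAAT box follows 109 bases before the start, outside the part printed. The Col3a1 stretch holds a TATA box 117 bases before the start and neither of the other motifs. G and C made up 62% of the 250 bases for Col1a2 and 35.2% for Col3a1. Of the 31 members with an entry in the promoter table, 23 (74.2%) held a GC box in those 250 bases, 11 (35.5%) a CCAAT box and 3 (9.68%) a TATA box. Over the first listed promoter of all 27025 genes the shares were 32.9%, 34.5% and 13%. A match describes letters only and shows no bound factor.

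The minor fibrillar chains formed a graded series. Col5a2 had a mean of 7.73 ± 0.95, Col5a1 of 6.57 ± 0.93 and Col5a3 of 5.44 ± 1.46, all 3 in 17 cells. Col5a1 and Col5a2 join in the same type V molecules, and Col5a1 was above Col5a2 in 3 cells. Col5a3 ran from 3.34 in cell 3 through 5.36 to 8.44 in cell 8, with cell 12 next at 8.04. Col27a1, a fibrillar chain known from cartilage, was detected in 3 cells only, at 4.72 in cell 14, 2.79 in cell 4 and 1.49 in cell 7.

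Type VI collagen was present as its 3 classical chains in every cell. Col6a1 had a mean of 7.24 ± 0.99, Col6a2 of 7.11 ± 1.04 and Col6a3 of 6.84 ± 1.04. The mean difference of Col6a1 and Col6a2, 0.13 ± 0.61, was smaller than its spread, and Col6a1 was higher in 9 of 17 cells. On the scale multiplied by length Col6a1 was higher in 2 cells, so the order of these 2 chains depends on the length used. The longest of the chains, Col6a3, was above Col6a1 in 6 cells, and in 14 after multiplication by length. The alternative chains Col6a5 and Col6a6, which are known to replace the Col6a3 chain, were detected in 3 and 7 cells, in 8 cells altogether and jointly in cells 2 and 3. Col6a5 was highest in cell 2 at 6.13 and Col6a6 in cell 17 at 5.11.

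Fibril-surface and basement membrane chains varied more. Col16a1 ran from 1.46 in cell 15 through 7.32 to 9.17 in cell 17, and Col14a1 from 1.17 in cell 13 through 6.25 to 8.23 in cell 5, each in all 17 cells. Col12a1 was detected in 16 cells, from 0.83 in cell 15 through 3.43 to 7.66 in cell 8. In Col14a1, 5 cells lay at 3.26 or below (cells 1, 3, 7, 10 and 13) and the other 12 at 5.53 or above, and no cell lay between. The basement membrane chains Col4a1 (mean 5.76 ± 1.92) and Col4a2 (4.60 ± 1.81) were detected in every cell with the lowest values of both, 1.47 and 1.18, in cell 15. Their X-linked relative Col4a5 was detected in 7 cells, up to 5.96 in cell 11. Col15a1 and Col18a1, chains of the basement membrane zone whose ends can release endostatin-like fragments, were detected in 16 and 7 cells. The 7 cells with Col18a1 all had Col15a1, as did every other cell except cell 15. Col8a1, a network-forming chain, was detected in 3 cells, up to 4.40 in cell 14.

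Prolyl 4-hydroxylase, which makes the hydroxyproline that stabilises the helix, was represented by both of its parts in every cell. P4hb, the beta subunit and a general disulfide isomerase, ran from 8.58 in cell 11 through 10.03 to 11.64 in cell 2. By mean its catalytic partners lay far lower, P4ha1 at 4.98 ± 1.30 and P4ha2 at 5.41 ± 2.47. P4hb was above P4ha1 in all 17 cells and above P4ha2 in 16, the exception being cell 7. P4ha2 was above P4ha1 in 11 cells, and its highest value, 10.36 in cell 7, stood well above the next, 8.12 in cell 1. P4ha3 was detected in cell 17 alone, at 5.78.

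The prolyl 3-hydroxylation complex was unevenly covered. Ppib, the cyclophilin that also isomerises prolines, had a mean of 9.05 ± 0.80 in 17 cells, and the cartilage-associated protein gene Crtap 5.89 ± 2.93 in 16 cells. Crtap ran from 0.89 in cell 8 through 6.93 to 9.73 in cell 16. P3h1, the enzyme of this complex, was detected in 9 cells with a highest value of 7.02 in cell 14, and in 8 cells together with Crtap and Ppib. P3h3 was detected in 13 cells and P3h4, a non-enzymatic partner in lysyl hydroxylation complexes, in 11. P3h4 is nevertheless grouped here with prolyl 3-hydroxylation. Each cell except cell 15 had P3h1 or P3h3, and 6 cells had both. This split rests partly on values at the threshold, with P3h3 at 1.003 in cell 2 and P3h1 at 0.977 in cell 15.

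Lysyl hydroxylases, which prepare lysines for sugars and cross-links, were the least detected step. Plod3 was detected in 12 cells, Plod1 in 10 and Plod2 in 5. Plod2, the form that acts on the telopeptides, was at 4.95 to 5.56 in cells 3, 8, 10 and 14 and at 1.73 in cell 9, with the remaining 12 cells at 0.73 or below. Of the 17 cells 16 had at least 1 of these genes and 3 had them all, while cell 11 had none at the threshold. Cell 2 was counted through Plod1 alone, at 1.08, close to the threshold. The folding chaperone Serpinh1, also called Hsp47, which binds the triple helix, was at 8.26 ± 0.92 in all cells, and the prolyl isomerase gene Fkbp10 at 4.51 ± 2.06 in 16.

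Propeptide removal was led by an enhancer and not by a protease. Pcolce, which speeds C-propeptide removal, ran from 7.38 in cell 15 through 10.93 to 12.72 in cell 1 and was above Bmp1, the protease it assists, in all 17 cells by 5.33 ± 2.27. After multiplication by exonic length the difference was 4.16 ± 2.32, and Pcolce was higher in 16 cells. In 13 cells Pcolce exceeded, before that multiplication, all members other than Col1a2 and Col3a1. Pcolce2 had a mean of 6.57 ± 1.13, the N-proteinase gene Adamts2 of 5.69 ± 1.22 and Bmp1 of 5.57 ± 1.50, each in 17 cells. Bmp1 was at 2.26 in cell 3 and 2.35 in cell 13 and at 4.76 or above in the other 15.

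Of the cross-linking oxidases, Loxl1, best known for its part in elastic fibres, had the highest mean at 6.42 ± 1.48, followed by Loxl2 at 4.93 ± 1.62, both in all cells. Lox ran from 0.71 in cell 15 through 5.58 to 8.12 in cell 4, and Loxl3 was detected in 12 cells. Lox had no cell between 2.17 and 5.49: 7 cells (2, 3, 6, 7, 10, 13 and 15) lay below and 10 above. All 4 were detected together in 11 cells.

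**Figure D2:**
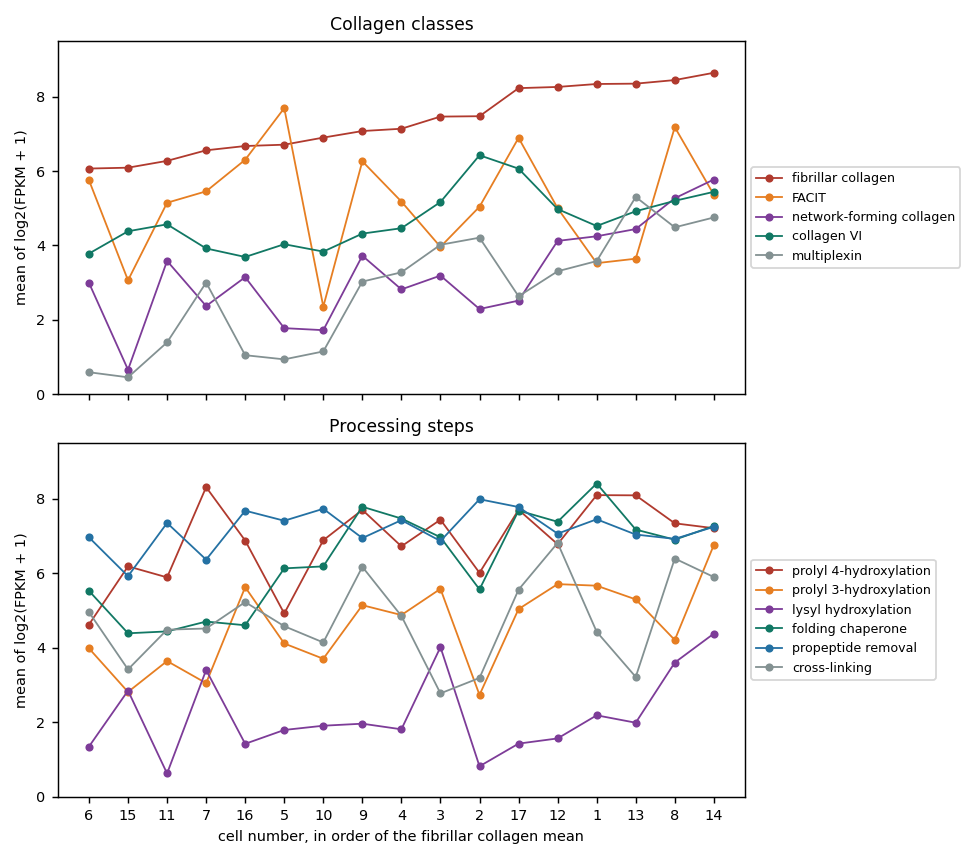
Mean deposited value, read as log2(FPKM + 1), of each collagen class (upper panel) and processing step (lower panel) in each of the 17 cells, ordered by the fibrillar collagen mean (horizontal axis, cell number). Points are means over the members detected in at least 3 cells. The fibrillar mean therefore includes Col27a1, which was detected in 3 cells and was at 4.72 in cell 14. Folding chaperones tend to be higher toward the right, where fibrillar means reach 8.64 in cell 14, whereas the line of propeptide removal stays between 5.92 and 7.99.

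Collagen genes varied together over the cells. Pearson correlations over the 17 cells are given as descriptions, and all of them share the normalisation and the same libraries. Over the 210 pairs of collagen genes the median correlation was 0.309, with 57 pairs (27.1%) at 0.5 or more. With genes detected in at least 9 cells only, the median was 0.505. Over all pairs of the 7551 rows detected in at least 3 cells the median was -0.00695 and 2.57% reached 0.5. Genes detected in every cell could correlate more readily, so the same was computed among these: 44 of 78 pairs of the 13 collagen genes (56.4%) reached 0.5, against 4.17% of pairs of all 1100 such rows. The 7 fibrillar genes had a median of 0.451 over 21 pairs.

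The highest correlations among all members were those of Col1a1 with Col1a2 (0.944, Spearman 0.929), Col3a1 with Col1a2 (0.884, Spearman 0.898), Col6a1 with Col6a2 (0.824, Spearman 0.882), Col6a1 with Col5a1 (0.822, Spearman 0.826) and Col3a1 with Col5a1 (0.814, Spearman 0.783). With each cell left out in turn the first stayed between 0.926 and 0.961 and the second between 0.872 and 0.939. With the means of the sets of cells 1 to 5, 6 to 14 and 15 to 17 subtracted, they were 0.943 and 0.882. These sets follow cell number, were defined after the data were seen and are no groups of the study. Against the mean of the other fibrillar genes, Col3a1 stood at 0.900, Col6a2 at 0.825, Col6a1 at 0.812, Col15a1 at 0.720, Col4a1 at 0.659 and Col16a1 at 0.565.

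**Figure D3:**
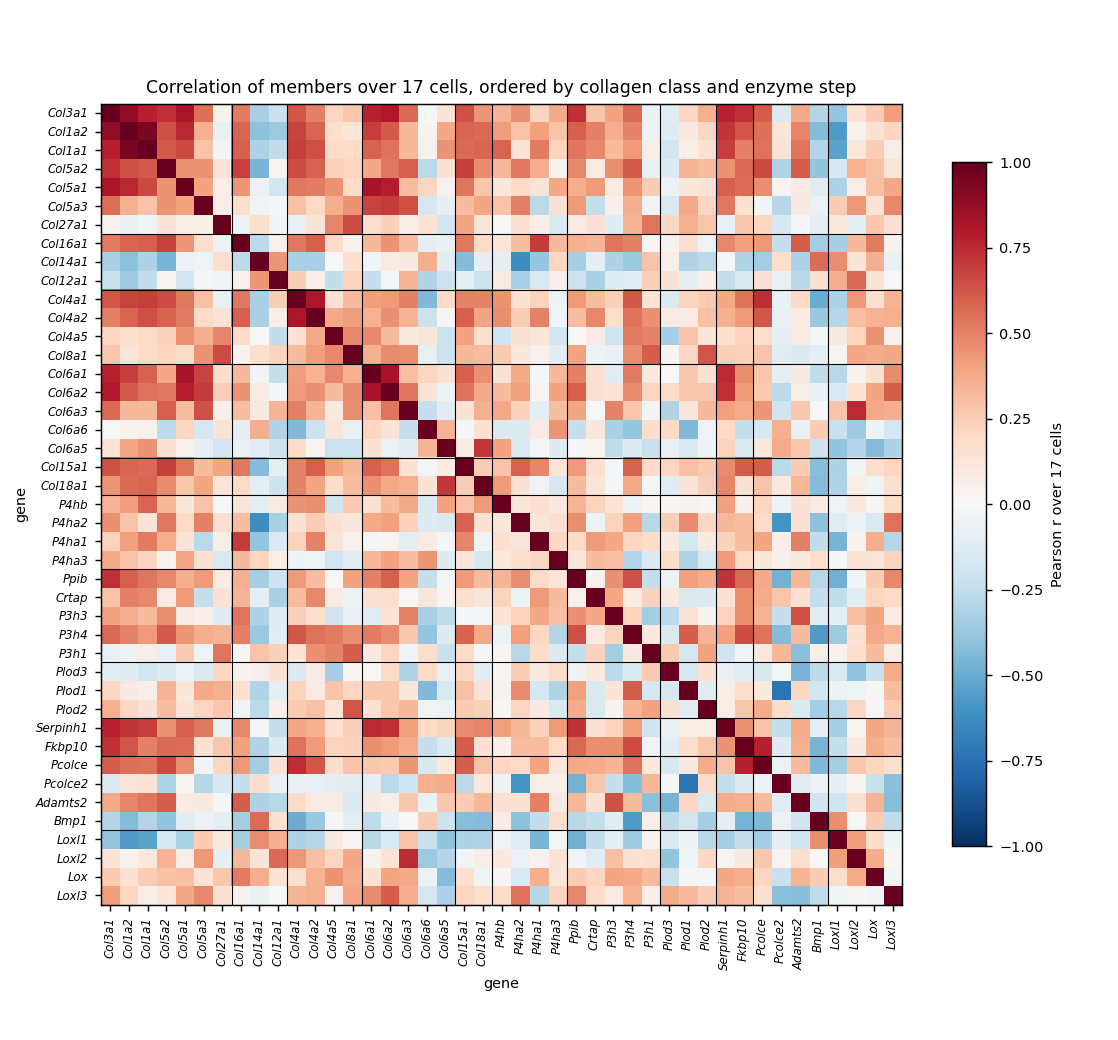
Pearson correlation over 17 cells for every pair of the 43 genes (both axes, same order), with lines between collagen classes and processing steps. The block of fibrillar genes and its rows across collagen IV and VI are mostly red, and rows of Col14a1, Bmp1 and Loxl1 are mostly blue against the fibrillar genes.

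Processing genes did not form such a block. Over their 210 pairs the median was 0.0995, with 10 pairs (4.76%) at 0.5 or more, and among the 11 detected in every cell 2 of 55 pairs (3.64%) reached it, near the 4.17% of all rows detected in every cell. Processing genes did vary with the collagens. The mean of the 21 processing genes detected in at least 3 cells correlated with the fibrillar mean at 0.773 (Spearman 0.723, and 0.729 to 0.856 with each cell left out). Of 441 pairs of a collagen gene with a processing gene, 53 (12%) reached 0.5, against 2.57% of all pairs, with a median of 0.157. Serpinh1 correlated with the fibrillar mean at 0.732 (0.681 to 0.821 with each cell left out), Fkbp10 at 0.655 (0.589 to 0.704), Ppib at 0.642 (0.571 to 0.739), P3h4 at 0.630 (0.575 to 0.789) and Pcolce at 0.572 (0.497 to 0.671). These 5 were all of the 20 processing genes detected in at least 9 cells that reached 0.5, or 25%, as did 7 of 9 non-fibrillar collagen genes. Among the other 3929 rows detected in at least 9 cells the share was 2.83%.

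By step, the mean of the folding chaperones correlated with the fibrillar mean at 0.775, prolyl 3-hydroxylation at 0.633 and prolyl 4-hydroxylation at 0.573. Within prolyl 3-hydroxylation, Ppib (0.642) and P3h4 (0.630) stood above Crtap (0.323), P3h3 (0.299) and P3h1 (0.118). Lysyl hydroxylation stood at 0.320, cross-linking at 0.305 and propeptide removal at 0.272. Lysyl hydroxylation stood at 0.157 without cell 14, and at 0.0590 with genes detected in at least 9 cells only. Without cell 15 propeptide removal stood at 0.0643. The last is a mean of unlike members: Pcolce at 0.572 and Adamts2 at 0.425 (0.272 without cell 6) stand beside Pcolce2 at -0.117 (0.0442 without cell 1) and Bmp1 at -0.325. Pairs of processing genes had like medians within and across steps. The median was 0.0999 over 29 pairs of the same step, 18 of them above 0, and 0.0992 over 181 pairs of different steps, 115 of them above 0. Within steps 1 pair reached 0.5, Ppib and P3h4 at 0.642, which rests on placing P3h4 in prolyl 3-hydroxylation. Crtap and P3h1 stood at 0.228 and P4hb and P4ha1 at 0.171. Across steps 9 pairs reached 0.5, among them Pcolce and Fkbp10 at 0.781, Serpinh1 and Ppib at 0.724, and P3h4 and Plod1 at 0.609. Between a collagen chain and an oxidase, Col6a3 and Loxl2 reached 0.744.

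**Figure D4:**
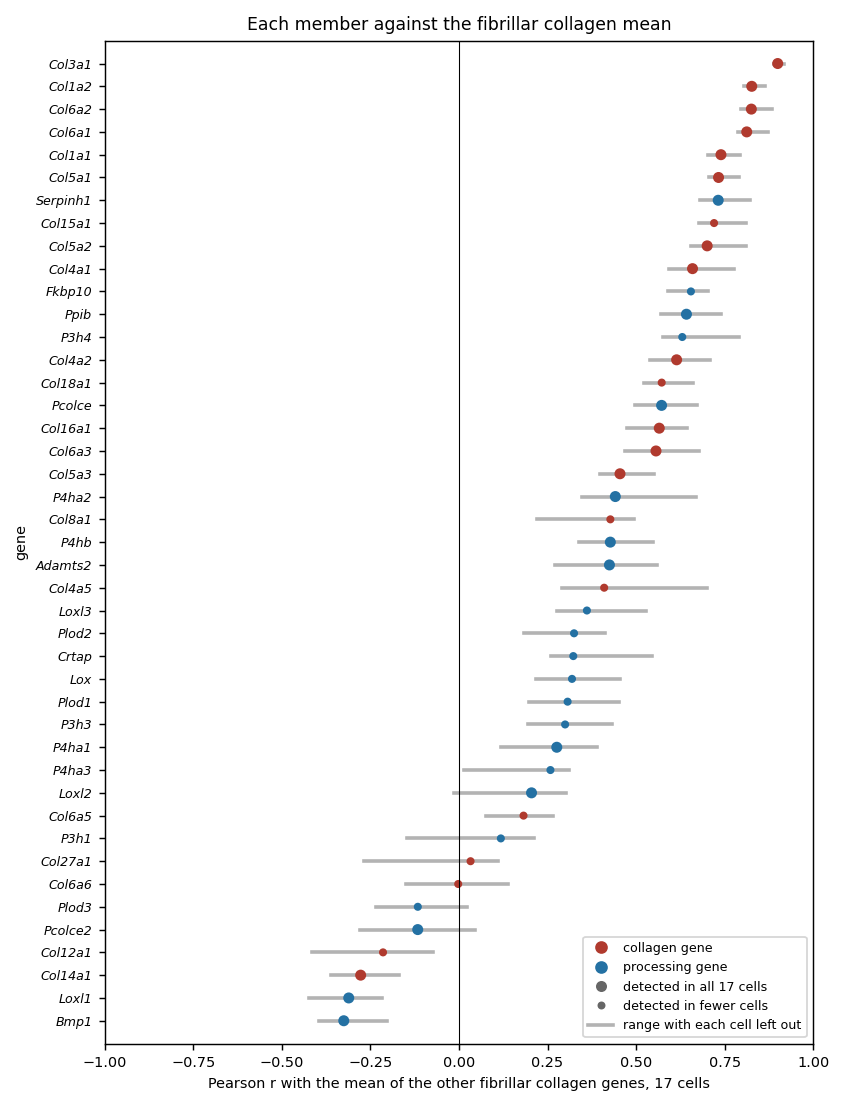
Pearson correlation over 17 cells of each gene (vertical axis) with the mean of the fibrillar collagen genes other than itself (horizontal axis), with grey lines for the range when each cell is left out in turn. Large points are genes detected in all 17 cells. Serpinh1 is the highest processing gene at 0.732, and Col12a1, Col14a1, Loxl1 and Bmp1 lie below 0 over their whole range.

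A few members stood below 0 against the fibrillar genes, weakly for the fibrillar mean. Bmp1 was at -0.325 (-0.395 to -0.204 with each cell left out, the last without cell 13), Loxl1 at -0.311 (-0.424 to -0.218), Col14a1 at -0.278 (-0.360 to -0.171, the last without cell 13) and Col12a1 at -0.215 (-0.414 without cell 8 to -0.0749 without cell 6). Loxl1 was lowest in cells 3, 1 and 13, at 2.57, 4.55 and 4.59, which held 3 of the 4 highest Col1a2 values (12.09, 12.36 and 13.26). The correlation of Loxl1 with Col1a2 was -0.569 (-0.668 to -0.499 with each cell left out). Col14a1 was likewise low in these 3 cells, at 1.96, 1.40 and 1.17, but also in cells 7 and 10, at 3.26 and 2.14, where Col1a2 was at 9.04, its lowest value, and 10.53. The lowest correlations among the members were those of Pcolce2 with Plod1 (-0.727, Spearman -0.718), Col14a1 with P4ha2 (-0.620, Spearman -0.667), Pcolce2 with P4ha2 (-0.597, Spearman -0.500), Col1a2 with Loxl1 and Bmp1 with P3h4 (-0.568, Spearman -0.588). Among the 3 fibril-surface chains, Col12a1 and Col14a1 correlated at 0.443 whereas Col16a1 and Col14a1 stood at -0.265 (-0.444 without cell 10 to -0.170 without cell 6), and the class mean had a correlation of 0.0374 with the fibrillar mean.

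**Figure D5:**
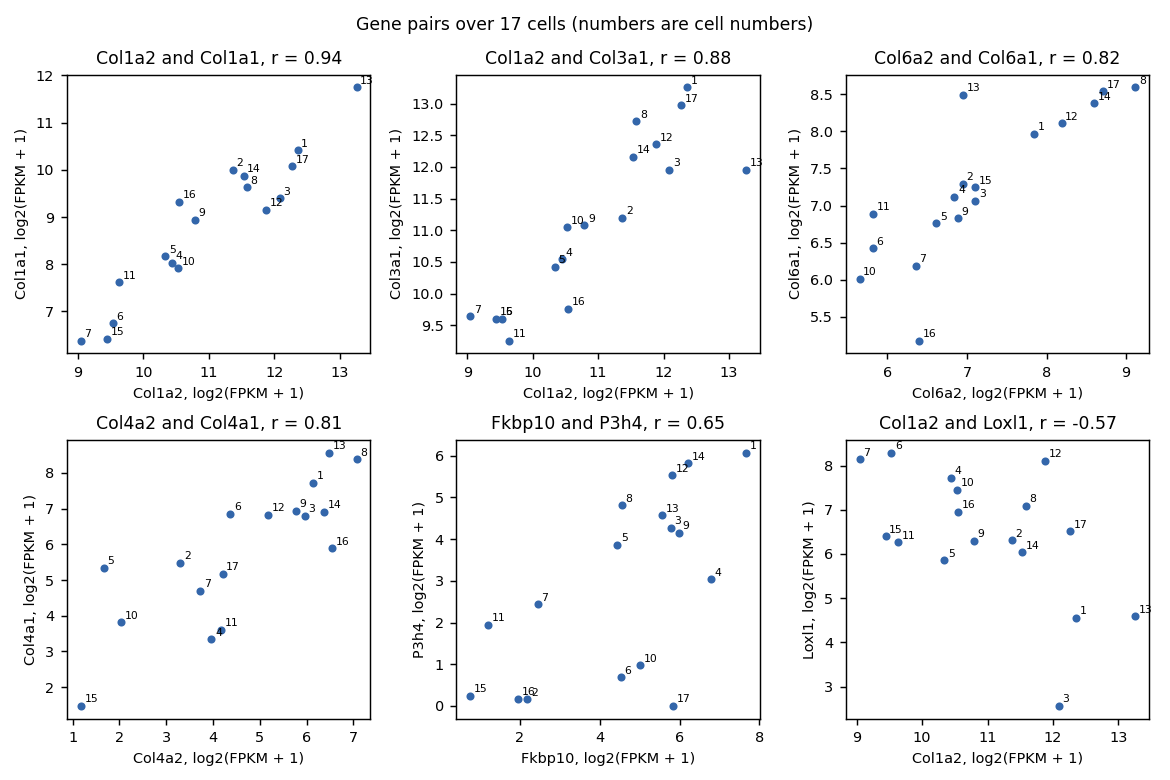
Deposited values, read as log2(FPKM + 1), of 6 gene pairs in the 17 cells (each point a cell, with its number). The type I pair lies on a narrow band from cell 7 to cell 13, P3h4 is near 0 in cell 17 despite Fkbp10 at 5.83, and Loxl1 is lowest in cell 3.

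Some members are neighbours in the genome. Col4a1 and Col4a2 on chromosome 8 are transcribed away from each other from annotated starts 21 bases apart, a pair known to share a promoter, and correlated at 0.809 (0.741 to 0.866 with each cell left out). P3h4 and Fkbp10 on chromosome 11 also lie head to head, with starts 861 bases apart, and correlated at 0.649 (0.588 to 0.759). Both were detected in 11 cells, while Fkbp10 was at 5.83 in cell 17 with P3h4 near 0. Col3a1 and Col5a2 on chromosome 1 end 24614 bases apart, tail to tail, and correlated at 0.727. Col6a2 and Col6a1 on chromosome 10 lie on the same strand 85161 bases apart and correlated at 0.824, and Col6a6 and Col6a5 on chromosome 9, 27917 bases apart, at 0.336 but at -0.00525 without cell 2 (Spearman -0.193). Col1a1 and Col1a2, on different chromosomes, had the highest correlation of all member pairs. Col4a1 and Col4a2 overlap at their annotated 5′ ends, and whether the counting used strand is not given in the sources used here.

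Other genes of the collagen pathway mostly had low correlations with the fibrillar mean, with exceptions named here and below. Of 23 measured genes of the secretory route 13 correlated above 0 with it and the median was 0.0463. Hspa5, the main chaperone of the endoplasmic reticulum (mean 8.32), stood at -0.527, Hsp90b1 (7.83) at -0.183 and the lectin chaperone gene Canx (6.92) at -0.113. The prolyl isomerase gene Fkbp7 (8.01 ± 2.39) stood at 0.574. Of 14 measured turnover genes, 10 were detected in all cells and 8 correlated above 0. The lowest of them was Timp3, detected in 14 cells, at -0.519 (Spearman -0.564). The cathepsin gene Ctsl (8.83 ± 0.97) stood at 0.201, the protease inhibitor genes Timp2 (8.53 ± 0.95) at -0.232 and Timp1 (8.14 ± 1.73) at 0.224, and the gelatinase gene Mmp2 (8.22 ± 0.80) at -0.0790.

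Among partners of the fibril, 11 were measured and 7 correlated above 0, with a median of 0.0385. Mfap5, a microfibril protein (mean 9.87), stood at 0.00831, the small proteoglycan gene Lum (9.40) at 0.497, Dpt (9.09) at -0.125 and the fibronectin gene Fn1 (8.52) at -0.186. Of 6 measured collagen receptor genes 1 correlated above 0. Anxa2 (8.09), which binds many ligands, stood at 0.152, the integrin chain gene Itgb1 (5.98) at -0.190, Cd44 (5.14) at -0.299 and the collagen-binding kinase gene Ddr2 (4.10) at -0.379. Of 13 TGF-beta genes, the pathway best known for inducing collagen, 3 correlated above 0 and the median was -0.167. Its receptor gene Tgfbr2 (6.41) stood at -0.288, Postn (4.78) at 0.434 and Ltbp4 (4.17) at 0.216. Over all rows detected in at least 3 cells the median was 0.000135.

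Among 3836 other genes detected in at least 9 cells, leaving out gene models and ribosomal protein genes, the 10 most like the fibrillar mean were Ncbp2 (0.795), Sgk1 (0.739), Fkbp9 (0.706), Mospd3 (0.704), C1qtnf6 (0.693), Tmem263 (0.690), Bgn (0.686), Ppig (0.685), Fam3c (0.682) and the Y-linked Eif2s3y (0.681). Fkbp9 is a prolyl isomerase of the endoplasmic reticulum, and Bgn encodes biglycan, a proteoglycan bound to collagen fibrils. Fkbp9 is also among the genes of the secretory route counted above, and Bgn among the partners of the fibril. The 5 least like it were Rbm17 (-0.811), Pkn2 (-0.782), Pim3 (-0.775), Thoc2 (-0.759) and Ccdc88a (-0.721). These are the ends of a list of 3836 genes over 17 cells, and no test was made on them.

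Single cells differed in how many members stood at an extreme. Cell 15 held the lowest value of 12 of the 43 genes and the highest of none. Ties were counted for the lowest-numbered cell only, and cell 15 also shared the lowest value, 0, in Col4a5, Col6a5 and Col8a1. It had 29 members detected, the fewest, although 4369 rows were detected in each cell. Extremes were not counted over all rows. Cell 14 held the lowest of none and had 41 detected, the most. Cell 8 held the highest value of 7 genes, among them Col5a2, Col6a1, Col6a2, Col5a3 and Loxl2. Yet Serpinh1 in cell 15 was at 8.02 and Ppib at 9.15, near their medians of 8.16 and 9.15, while its Pcolce was the lowest of all cells. The count of rows at a cell's lowest value, the remaining measure of library complexity, ranged from 881 to 1766. It correlated with the fibrillar mean at -0.117 and stood at 1425 in cell 15, 881 in cell 14 and 1259 in cell 8. The mean of 19 immediate-early genes, a group that digestion of tissue can induce, correlated with the fibrillar mean at 0.105, and that of ribosomal protein genes at -0.263. Single immediate-early genes ran from -0.473 (Nr4a1) to 0.656 (Ier2), with 13 of the 19 above 0. Summed levels of the 9 marker lists of other cell types correlated with the fibrillar mean at -0.420 to 0.385, and that of the 12 fibroblast markers at 0.444. The 1 measured tendon marker, Tnmd, was at 9.22 in cell 1, which held the highest Col3a1, Pcolce and Fkbp10 values. The part of these in the collagen values was not tested beyond the correlations given.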

How the data were processed

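RNA was measured in 17 single cells, 1 library each. Per the labels' protocols, the SMART-Seq v4 3′ DE kit, which reads transcript ends, was followed by Nextera XT. TopHat2, Cufflinks and GRCm38 are named, without roles or versions, per the submitters' processing notes. The deposited log2 values were read as log2(FPKM + 1), although neither the base nor the added constant is given in the sources used here. Sorted values above 3 differed between cells by at most 0.0165, the form quantile normalisation gives, so depth is unknown and totals are uninformative. Spearman correlations between cells over all rows had a median of 0.496 and a highest value of 0.608, so no 2 columns held the same library.

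All 43 members matched GENCODE M21 on GRCm38, as did 8431 of 8446 rows. A symbol with several rows took the row with the highest mean. FPKM 5 and 10 correspond to 2.58 and 3.46. Class means and pairs used members detected in at least 3 cells. Members and lists were chosen with earlier results of these data known. The named genes are all members, the 5 highest and 5 lowest pairs, the 4 highest means of each other pathway list (1 TGF-beta gene is not reported here), and the 10 and 5 extremes of likeness. Further genes, pairs and cells named were chosen after their values were seen. The correlation code was tested on simulated data. Alternatives covered the correlation measure, pseudocount 0.1, gene length, the detection filter, set means, library complexity and the omission of each cell. Python 3.11.15, numpy 2.4.6, pandas 2.3.3 and matplotlib 3.10.9 were used.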

Additional observations from a re-analysis of the deposited data

How the results depend on the processing

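Of the 24 members detected in all 17 cells, 15 were still found in every cell at FPKM 5 and 13 at FPKM 10, through the stricter threshold itself, and 35 lay above the cell's lowest value in every cell. With genes limited to those detected in at least 9 cells, which leaves Plod2 out of lysyl hydroxylation and Col27a1 out of the fibrillar mean, the correlation of that step with the fibrillar mean was 0.0590. The same limit took the median over collagen pairs from 0.309 to 0.505 and the correlation of collagen VI, then without Col6a5 and Col6a6, from 0.645 to 0.858. A pseudocount of 0.1 took the mean level of collagen VI to 3.82. Multiplication by gene length took the Col1a1 minus Col1a2 difference to -3.09 and the mean levels of fibrillar collagen to 8.63, collagen VI to 5.60 and propeptide removal to 8.09, through the length factor. It also turned the sign of 3 chain differences, Col3a1 minus Col1a2 (0.17 to -0.17), Col6a1 minus Col6a2 (0.13 to -0.79) and Col6a3 minus Col6a1 (-0.40 to 1.04). On that scale the mean of Ppib (9.07) lay below that of Col1a1 (9.82). The other class levels and correlations under these alternatives moved by less than their spread (the SD over cells for a level, the SD over gene pairs for a correlation). The SD over gene pairs is a wide yardstick and does not measure how stable a median or a class correlation is.

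With each cell left out in turn, the median pair correlation ranged from 0.252 to 0.330 for collagen genes, 0.389 to 0.584 for fibrillar genes and 0.0910 to 0.126 for processing genes, and the median of collagen with processing genes from 0.133 to 0.196. The correlation with the fibrillar mean ranged from 0.604 to 0.755 for collagen VI, 0.738 to 0.830 for folding chaperones, 0.556 to 0.713 for prolyl 3-hydroxylation, 0.478 to 0.713 for prolyl 4-hydroxylation and 0.214 to 0.447 for cross-linking. It ranged from 0.157 (without cell 14) to 0.413 for lysyl hydroxylation and from 0.0643 (without cell 15) to 0.335 for propeptide removal, so these 2 low values rest partly on single cells. By Spearman correlation 61 of 210 collagen pairs reached 0.5, and with set means subtracted 63. No paired analysis was possible because all cells form 1 group. Read depth is unknown, so a value under the threshold does not show that a gene was silent.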
